A study of Mus musculus with 4 samples.

Results

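The heavy chain variable segments of the mouse, the genes whose symbols start with Ighv, were examined in RNA of whole pancreas. Members were all gene symbols with that prefix in the deposited count tables, 183 of 55291 symbols, with pseudogenes kept. In GENCODE release M21 on GRCm38 they lie on chromosome 12 between 113572927 and 116010093, and 182 are on the minus strand. Of the 183, 113 are annotated as V genes and 68 as pseudogenes, and 2 symbols (Ighv5-8 and Ighv1-13) carry an entry of each kind. The study sequenced 4 libraries, 2 from Pdx1-Cre+, poh1f/+ pancreas (control, 1 floxed poh1 copy) and 2 from Pdx1-Cre+, poh1f/f pancreas (labelled knockout, both copies floxed). Both groups therefore carry the Cre transgene, whose Pdx1 promoter works in the epithelial progenitors of the pancreas and not in B cells. Poh1 is the older name of Psmd14, a deubiquitinase of the proteasome lid. Strain, age, sex and the number of animals per library are not given in the labels, so the p-values speak for the spread among these samples alone, and that spread may be technical.

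Each B cell assembles its heavy chain gene by joining 1 V segment to a D and a J segment, and the joined exon is spliced to a constant gene such as Ighm or Igha. The V segment encodes most of the antigen-binding domain, including its first and second hypervariable loops, and the third loop starts at a cysteine near the 3′ end of the segment and runs across the join. Which segments appear in a tissue's RNA, and how evenly, therefore describes the B cells and plasma cells it holds, with plasma cells giving far more immunoglobulin RNA per cell. Whole-tissue RNA cannot tell fewer cells of a type from less RNA per cell.

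The segments on which the results turn are shown first, 5′ to 3′ on the minus strand, copied from GENCODE release M21 transcripts on GRCm38. Each sequence is the 3′ end of the last of the segment's 2 annotated exons, so it need not start where the exon or the V segment starts. In the first 4, capitals mark the stretch from the cysteine codon TGT to the end of the segment. Ighv11-2 (chr12:114048241-114048536) was the most used segment of both control libraries. Ighv12-3 (chr12:114366521-114366816) is, with Ighv11-2, known for antibodies of peritoneal B-1 cells that bind phosphatidylcholine. Ighv1-26 (chr12:114788372-114788667) and Ighv10-3 (chr12:114523441-114523736) were near 0 in control libraries and prominent in 1 or both libraries labelled knockout.
Ighv11-2: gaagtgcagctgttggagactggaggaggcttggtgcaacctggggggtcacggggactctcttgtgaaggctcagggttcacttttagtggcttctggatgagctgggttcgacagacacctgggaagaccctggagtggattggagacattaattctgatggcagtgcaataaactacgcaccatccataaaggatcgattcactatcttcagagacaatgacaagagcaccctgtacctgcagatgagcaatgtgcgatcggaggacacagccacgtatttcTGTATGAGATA
Ighv12-3: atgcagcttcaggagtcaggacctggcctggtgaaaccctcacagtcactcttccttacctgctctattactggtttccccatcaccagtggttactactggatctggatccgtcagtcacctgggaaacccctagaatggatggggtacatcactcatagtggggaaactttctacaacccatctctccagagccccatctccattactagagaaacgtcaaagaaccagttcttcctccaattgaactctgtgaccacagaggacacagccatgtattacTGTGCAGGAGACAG
Ighv1-26: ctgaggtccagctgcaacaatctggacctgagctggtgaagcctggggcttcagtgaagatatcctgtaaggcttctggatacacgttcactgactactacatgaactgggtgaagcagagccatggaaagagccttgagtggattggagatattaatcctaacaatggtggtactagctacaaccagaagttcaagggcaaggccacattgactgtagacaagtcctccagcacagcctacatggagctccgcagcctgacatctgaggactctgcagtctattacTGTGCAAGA
Ighv10-3: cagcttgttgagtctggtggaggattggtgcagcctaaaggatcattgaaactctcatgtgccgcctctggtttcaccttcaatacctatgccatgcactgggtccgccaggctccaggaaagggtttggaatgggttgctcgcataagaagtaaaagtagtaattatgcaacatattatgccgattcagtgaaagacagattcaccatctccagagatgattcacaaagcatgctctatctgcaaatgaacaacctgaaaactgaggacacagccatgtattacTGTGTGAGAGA

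Ighv3-1 (chr12:113964388-113964683) and the annotated pseudogene Ighv3-2 (chr12:114033803-114034097) are shown because they moved together and are close in sequence. Capitals mark the bases that differ between the pair in the stretch shown (16 substitutions and 1 base that Ighv3-2 lacks).
Ighv3-1: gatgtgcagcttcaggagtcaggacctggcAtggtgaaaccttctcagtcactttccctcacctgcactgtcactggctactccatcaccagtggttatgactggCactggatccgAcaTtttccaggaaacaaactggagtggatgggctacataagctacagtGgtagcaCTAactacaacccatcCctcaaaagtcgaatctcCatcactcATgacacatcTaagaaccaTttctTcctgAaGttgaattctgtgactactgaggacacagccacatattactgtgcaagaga
Ighv3-2: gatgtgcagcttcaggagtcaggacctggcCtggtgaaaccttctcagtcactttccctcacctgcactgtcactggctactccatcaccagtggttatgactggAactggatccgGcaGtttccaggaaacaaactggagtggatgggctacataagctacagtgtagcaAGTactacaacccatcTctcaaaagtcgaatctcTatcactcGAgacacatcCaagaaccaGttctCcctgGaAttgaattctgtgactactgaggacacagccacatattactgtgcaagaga
Over all members the median identity of a segment's annotated transcript to its nearest other member was 90.6%. At 98% or above there were 8 members, which held 0.577% and 0.423% of Ighv counts in the controls and 1.90% in each library labelled knockout. Reads of near-identical segments may have been split or dropped in counting, and reads with many somatic mutations may not align, so single segments carry that uncertainty.

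Total counts were 22875618 to 27849730 per library, and 1 count was worth 0.0342 to 0.0455 CPM (counts scaled to library totals adjusted by TMM). RNA of Psmd14 was no lower in either library labelled knockout, at 61.6 and 52.9 CPM in control replicates 1 and 2 against 65.9 and 65.2 CPM, so the counts of this gene do not check the label (log2 fold change 0.20 ± 0.11 SE, edgeR adjusted p = 0.259). Genes typical of acinar cells, which make up most of the pancreas, summed to 11353 and 2497 CPM in the control libraries and to 205 and 640 CPM in the 2 labelled knockout over a list of 10 genes. Of the 9 of these that were tested, 6 fell and 3 did not pass, while 9.95% of all tested genes were called lower.

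Ighv RNA was far more abundant in both libraries labelled knockout. All Ighv genes together had 1732 and 1892 counts in control replicates 1 and 2, against 56410 and 26110 counts in knockout replicates 1 and 2. On the CPM scale these sums were 78.8 and 79.1 in the controls and 2021 and 894 in the libraries labelled knockout. The controls were nearly equal, both libraries labelled knockout lay far above them, and the latter differed from each other more than the controls did. Relative to the control mean the sum was 25.6-fold higher in knockout replicate 1 and 11.3-fold higher in knockout replicate 2, and the log2 ratio of group means was 4.21. Being a sum over chosen members, it was given no test, and with 2 against 2 libraries an exact two-sided permutation test cannot go below 0.33.

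The rise ran through most segments that could be tested. At least 1 count was found for 145 of the 183 members, and 103 passed the filter on low counts, while 38 had no count in any library. Of these 103, edgeR called 88 higher in those labelled knockout (adjusted p under 0.05) and left 15 uncalled, while 12.1% of all 19134 tested genes were called higher and 9.95% lower. No segment was called lower by edgeR, by DESeq2 (11.2% of all its genes were) or by limma-voom (9.94%), and none had an unadjusted edgeR p under 0.05 in that direction. The median log2 fold change of the tested segments was 4.70, beside -0.0018 over all tested genes. The filter favours such segments, since 71 of the 103 reached its count level in both libraries labelled knockout but not in both controls, so these counts describe the segments and are not independent support. In CPM, both libraries labelled knockout lay above both controls for 100 of the 103 tested segments and below them for 0, against 34.4% and 33.7% of all tested genes. The number called depended on single libraries and on the tool. A fit without 1 library leaves 1 library in that group, so its replicate spread comes from the other group alone. Without control replicate 1 it was 27, with 3.44% of all genes called higher, and without control replicate 2 it was 40, with 7.69%. Without knockout replicate 1 it was 85 (11.7% of all genes), and 1 segment was lower (8.49%). Without knockout replicate 2 it was 102 (10.2%). By limma-voom 59 were called (11.7%), and by DESeq2 90 (13.2%). With edgeR it was 88 by DESeq2 size factors (12.2%), 89 by library totals (14.8%), 88 by TMM without lymphocyte genes (12.5%), 88 with no filter (6.87%), 81 at a mean count of at least 10 (11%) and 88 with a replicate block (10.2%).

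V genes and pseudogenes differed in how many were seen. Of 113 V genes, 109 had counts, 95 were tested and 84 were higher. Of 68 annotated pseudogenes, 36 had counts, 8 were tested and 4 were higher. Among all tested genes 12.1% were called higher, and the filter favours segments that are high in the libraries labelled knockout. Pseudogenes held 6.99% and 17.0% of Ighv counts in the controls against 7.19% and 4.40% in those labelled knockout, and most of the gap between the controls lay in Ighv3-2 (1.96% and 13.1%).

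Usage, the share of a segment in all Ighv counts of its library, was next compared. Annotated transcript lengths of the detected segments ran from 276 to 480 bases around a median of 351, and the same 10 segments led the mean share whether or not counts were divided by length. In both controls 1 segment, Ighv11-2, stood far above the others. It took 29.2% of Ighv counts in control replicate 1 (exact 95% binomial interval 27.0 to 31.4%) and 26.7% in control replicate 2 (24.8 to 28.8%), intervals that cover counting error only. In knockout replicate 1 it was still the first segment but with 10.2% (9.95 to 10.4%), and in knockout replicate 2 it held 1.73%. With counts divided by transcript length the 4 shares were 24.4%, 22.1%, 8.20% and 1.37%.

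The lower share of Ighv11-2 did not come with a lower level in both libraries labelled knockout. Its CPM was 23.0 and 21.2 in control replicates 1 and 2, 206 in knockout replicate 1 and 15.4 in knockout replicate 2. The controls were alike, 1 library labelled knockout was far above them and the other a little below, so the groups overlapped. The log2 fold change was 2.33 ± 1.11 (edgeR adjusted p = 0.190). Without knockout replicate 1 its sign turned, to -0.52, whereas without knockout replicate 2 it was 3.22. Such fits leave 1 library in a group, so only effect sizes are given here.

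The other segment of its family, Ighv11-1, and Ighv12-3 also split the libraries labelled knockout. Ighv11-1 had 23 and 28 counts in the controls, 64 in knockout replicate 1 and 1 in knockout replicate 2, or 1.05, 1.17, 2.29 and 0.0342 CPM. Its log2 fold change was 0.06 ± 1.30 (edgeR adjusted p = 0.978), and -4.83 without knockout replicate 1. Ighv12-3 had 34 and 24 counts in the controls, 995 in knockout replicate 1 and 46 in knockout replicate 2, or 1.55, 1.004, 35.6 and 1.57 CPM. For this segment knockout replicate 2 was at the control level and knockout replicate 1 far above it (log2 fold change 3.87 ± 1.42, edgeR adjusted p = 0.114; 4.81 without knockout replicate 2, edgeR adjusted p = 4.83e-09). In CPM, both segments known from phosphatidylcholine-binding antibodies were thus far above control levels in knockout replicate 1 alone. All Ighv genes together were 25.6-fold above the control mean in that library, and neither segment exceeded both controls in share. Ighv12-3 held 1.96% and 1.27% of Ighv counts in the controls, 1.76% in knockout replicate 1 and 0.176% in knockout replicate 2.

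**Figure D1:**
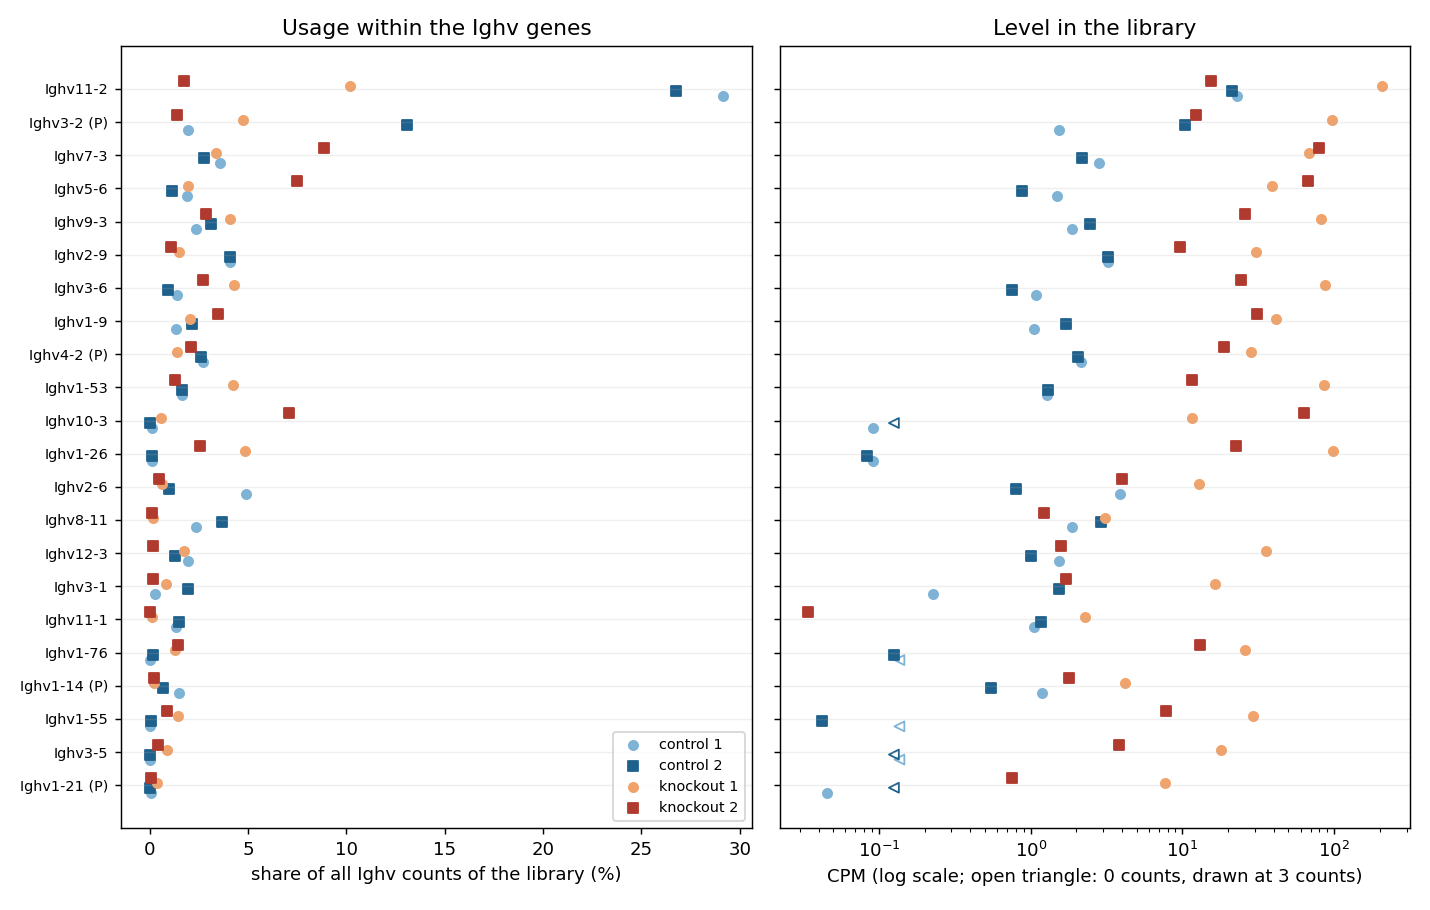
Share of all Ighv counts (left, percent) and level (right, CPM on a log scale) of the 22 segments named by rule, 1 point per library; P marks annotated pseudogenes and open triangles a library with 0 counts, drawn at 3 counts. Ighv11-2 takes 29.2% and 26.7% in the controls and 10.2% and 1.73% in the libraries labelled knockout, while its CPM is above the controls in knockout replicate 1 alone.

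Other leading segments rose in both libraries labelled knockout, with different first places in each. Ighv7-3 led knockout replicate 2 with 8.84% of Ighv counts, against 3.58% and 2.75% in the controls and 3.39% in knockout replicate 1. Its level was 2.82 and 2.18 CPM in the controls and 68.5 and 79.0 CPM in the 2 labelled knockout (log2 fold change 4.88 ± 0.19, edgeR adjusted p = 0.00153). The 2 groups were far apart and the libraries of each group close, so the difference exceeded the spread between replicates. Ighv5-6 came second in knockout replicate 2 with 7.50%, and had 1.501 and 0.878 CPM in the controls against 39.0 and 67.0 CPM (5.48 ± 0.41, edgeR adjusted p = 0.00316). Ighv1-9 had 1.05 and 1.72 CPM in the controls and 41.4 and 30.8 CPM in the 2 labelled knockout (4.70 ± 0.31, edgeR adjusted p = 0.00241). For Ighv5-6 and Ighv1-9, too, the groups did not overlap in CPM. In share Ighv1-9 overlapped, at 1.33% and 2.17% in the controls against 2.05% and 3.45%.

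Ighv9-3, Ighv3-6, Ighv1-53 and Ighv2-9 also rose, with knockout replicate 1 above knockout replicate 2 in each. Ighv9-3 had 1.86 and 2.47 CPM in the controls and 82.0 and 25.7 CPM in the 2 labelled knockout (4.63 ± 0.65, edgeR adjusted p = 0.0118). Ighv3-6 had 1.09 and 0.753 CPM against 86.4 and 24.3 CPM (5.91 ± 0.77, edgeR adjusted p = 0.0101). Ighv1-53 had 1.27 and 1.30 CPM against 85.9 and 11.5 CPM (5.24 ± 1.08, edgeR adjusted p = 0.0291). Each of the 3 was at a few CPM or less in both controls and did not overlap between groups in CPM. In share Ighv3-6 did not overlap either (1.39% and 0.951% against 4.28% and 2.72%). The shares of Ighv9-3 (2.37% and 3.12% against 4.06% and 2.87%) and Ighv1-53 (1.62% and 1.64% against 4.25% and 1.29%) overlapped. Ighv2-9 started higher, at 3.23 and 3.22 CPM in the controls, and reached 30.3 and 9.62 CPM (2.63 ± 0.57, edgeR adjusted p = 0.0334), so that its share went from 4.10% and 4.07% to 1.4997% and 1.08%. Of the 88 called segments, 69 were higher in CPM in knockout replicate 1 and 19 in knockout replicate 2. The sum of all Ighv genes was likewise higher in knockout replicate 1 (2021 against 894 CPM).

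Several segments that were almost missing from the controls became prominent. Ighv1-26 had 2 counts in each control and 2722 and 663 counts in the libraries labelled knockout, 4.83% and 2.54% of their Ighv counts. Its pooled ratio was 680, with a 95% counting interval from 265 to 2496 (edgeR adjusted p = 0.00865). Ighv10-3 had 2 and 0 counts in the controls, then 325 in knockout replicate 1 and 1848 in knockout replicate 2, where it held 7.08% of Ighv counts against 0.576% in knockout replicate 1. The pooled ratio of Ighv10-3 was 873 (counting interval 241 to 7211, edgeR adjusted p = 0.0134). Both were at the limit of detection in controls and high in the libraries labelled knockout, Ighv1-26 more so in the first and Ighv10-3 in the second.

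Ighv1-55 had 0 and 1 counts in the controls and 809 and 227 in those labelled knockout (ratio 832, counting interval 149 to 32902, edgeR adjusted p = 0.0093). Ighv3-5 had 0 counts in both controls and 505 and 111 in the libraries labelled knockout, at least 165-fold higher when 3 counts are taken as the floor over the control group (edgeR adjusted p = 0.0225). Ighv1-76 had 0 and 3 counts in the controls and 722 and 381 in those labelled knockout (ratio 295, counting interval 101 to 1434, edgeR adjusted p = 0.00558). In control libraries of 1732 and 1892 Ighv counts, a segment at 0 may still have held up to 0.173% and 0.159% of usage. The calls of Ighv9-3, Ighv3-6, Ighv1-53, Ighv2-9, Ighv1-26, Ighv10-3, Ighv1-55 and Ighv3-5, and of the pseudogene Ighv1-21, were lost without control replicate 1 (edgeR adjusted p from 0.0805 to 0.178), without control replicate 2 (0.0583 to 0.168) and with limma-voom (0.0552 to 0.196), with log2 fold changes of at least 2.38 in each.

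Ighv8-11 and Ighv2-6 are examples of the 15 segments that did not pass the test. Ighv8-11 had 41 and 70 counts in the controls and 86 and 36 in the libraries labelled knockout, or 1.86, 2.93, 3.08 and 1.23 CPM. The groups overlapped (log2 fold change -0.16 ± 0.53, 95% interval -1.51 to 1.20, edgeR adjusted p = 0.860), and the sign turned without control replicate 2 (0.21) or knockout replicate 2 (0.36). Its share went from 2.37% and 3.70% to 0.152% and 0.138%. Ighv2-6 had 85 and 19 counts in the controls, or 4.91% and 1.004% of Ighv counts, and 359 and 117 counts in those labelled knockout (1.86 ± 0.88, edgeR adjusted p = 0.189). Its lowest library labelled knockout, at 4.01 CPM, was close to the higher control, at 3.87 CPM. The 7 other tested segments that did not pass, Ighv5-1, Ighv5-15, Ighv9-1, Ighv6-7, Ighv1-2, Ighv1-37 and Ighv8-4, had log2 fold changes from 1.62 (Ighv1-37) to 4.09 (Ighv8-4) and edgeR adjusted p from 0.0574 to 0.121.

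Among annotated pseudogenes, Ighv3-2, Ighv4-2 and Ighv1-21 had the most counts. Ighv3-2 had 34 counts in control replicate 1, 247 in control replicate 2, 2684 in knockout replicate 1 and 361 in knockout replicate 2, which was 1.96%, 13.1%, 4.76% and 1.38% of usage. The controls lay far apart, and the log2 fold change was 3.18 ± 1.24 (edgeR adjusted p = 0.128; 4.01 without knockout replicate 2, edgeR adjusted p = 2.12e-05). Ighv3-1, whose end of the V exon is printed beside it, had 5, 37, 459 and 50 counts in the same order. The count of Ighv3-2 was 6.80, 6.68, 5.85 and 7.22 times that of Ighv3-1 in the 4 libraries, so the pair kept nearly the same ratio while its level varied. Ighv4-2 had 47 and 49 counts in the controls and 786 and 549 in those labelled knockout (3.48 ± 0.27, edgeR adjusted p = 0.00338), with tight replicates and no overlap. Ighv1-21 had 1 and 0 counts against 213 and 22, for a ratio of 189 (counting interval 33.6 to 7488, edgeR adjusted p = 0.0421). Ighv1-14, a pseudogene with 26 and 13 counts in the controls, had 116 and 52 in those labelled knockout (1.78 ± 0.61, edgeR adjusted p = 0.0954).

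Summed by family, the large Ighv1 family, also called J558, gained the most in usage. Its 92 members held 16.6% and 15.8% of Ighv counts in the controls and 35.4% and 31.7% in the libraries labelled knockout. Of its 50 tested segments 47 were called higher, beside 12.1% of all tested genes, under a filter that favours such segments. Ighv5 went from 6.52% and 4.49% to 7.32% and 14.5%, and Ighv6 from 1.27% and 1.16% to 7.01% and 4.99%. Those 3 families had higher shares in both libraries labelled knockout than in both controls. Ighv6 also had the largest ratio of summed CPM among the 15 families with counts, 97.0-fold, from 1.0006 and 0.920 CPM to 142 and 44.6 CPM.

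The Ighv11, Ighv2, Ighv8, Ighv9 and Ighv15 families had lower shares in both libraries labelled knockout than in both controls. The remaining 8 families, Ighv16 without counts among them, overlapped. In CPM, a different measure, 34.4% of all tested genes lay higher in both libraries labelled knockout and 33.7% lower. Ighv11 went from 30.5% and 28.2% to 10.3% and 1.73%, Ighv2 from 11.8% and 9.41% to 5.46% and 5.20%, and Ighv8 from 5.02% and 5.55% to 3.03% and 3.11%. In summed CPM, Ighv2 and Ighv8 were nevertheless 9.37-fold and 10.6-fold higher, against 18.5-fold for all Ighv genes. Ighv10 split the libraries labelled knockout, at 1.64% and 9.0004%. Most of it came from Ighv10-1 in knockout replicate 1 (1.06%) and from Ighv10-3 in knockout replicate 2 (7.08%). Shares sum to 100%, so a large segment that shrinks raises the others. Without Ighv11-2 in the sum, Ighv1 held 23.5% and 21.6% in the controls and 39.4% and 32.3% in the libraries labelled knockout, and Ighv2 held 16.6% and 12.8% against 6.08% and 5.29%, in the same directions. In contrast, without Ighv11-2 the Ighv5 shares overlapped between groups (9.21% and 6.13% against 8.15% and 14.7%).

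**Figure D2:**
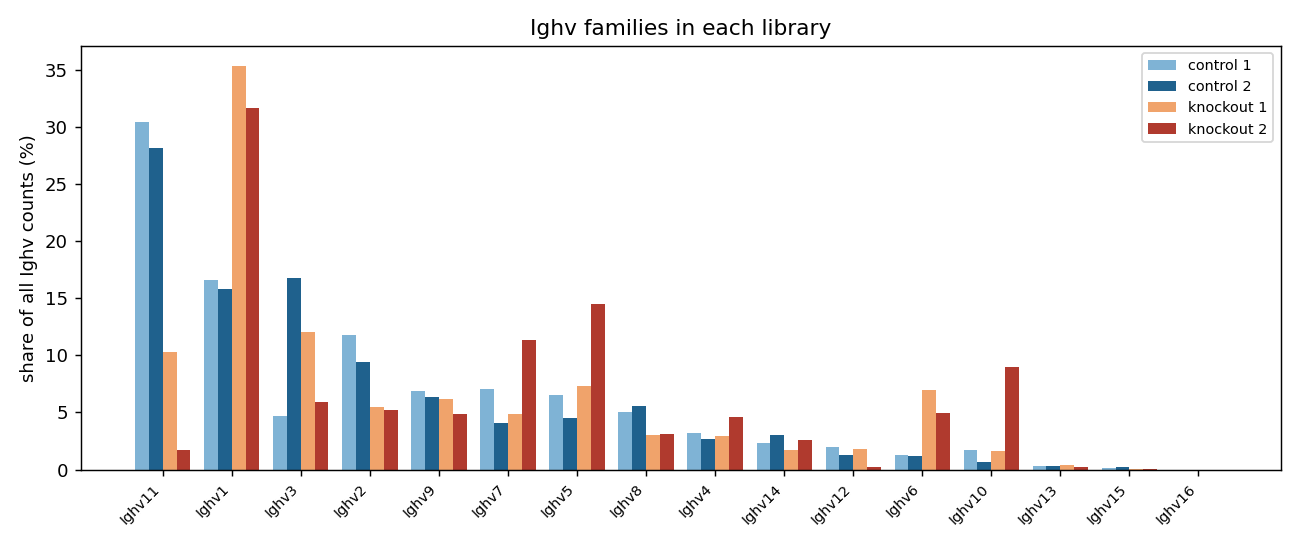
Share of all Ighv counts (percent) taken by each Ighv family, 1 bar per library, ordered by the control mean. Ighv1 stands at 16.6% and 15.8% in the controls and 35.4% and 31.7% in the libraries labelled knockout, and Ighv11 at 30.5% and 28.2% against 10.3% and 1.73%.

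Position along the locus followed the same division. The 183 members were split by order into 3 runs of 61, counted from the end next to the D segments. The D-proximal run (chromosome 12, 113572927 to 114314618), which contains all Ighv11 and Ighv2 and nearly all Ighv5 segments, held 71.9% and 74.4% of Ighv counts in the controls and 49.6% and 49.7% in the libraries labelled knockout. The middle run (114320030 to 114937544) held 14.3% and 11.2% in the controls against 26.7% and 31.0%, and the distal run (114945950 to 116010093) 13.7% and 14.4% against 23.6% and 19.4%. Each run separated the groups. Without Ighv11-2 the D-proximal shares were 60.4% and 65.0% in the controls against 43.9% and 48.8%, still without overlap, while the distal shares nearly met (19.4% and 19.7% against 26.3% and 19.7%).

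**Figure D3:**
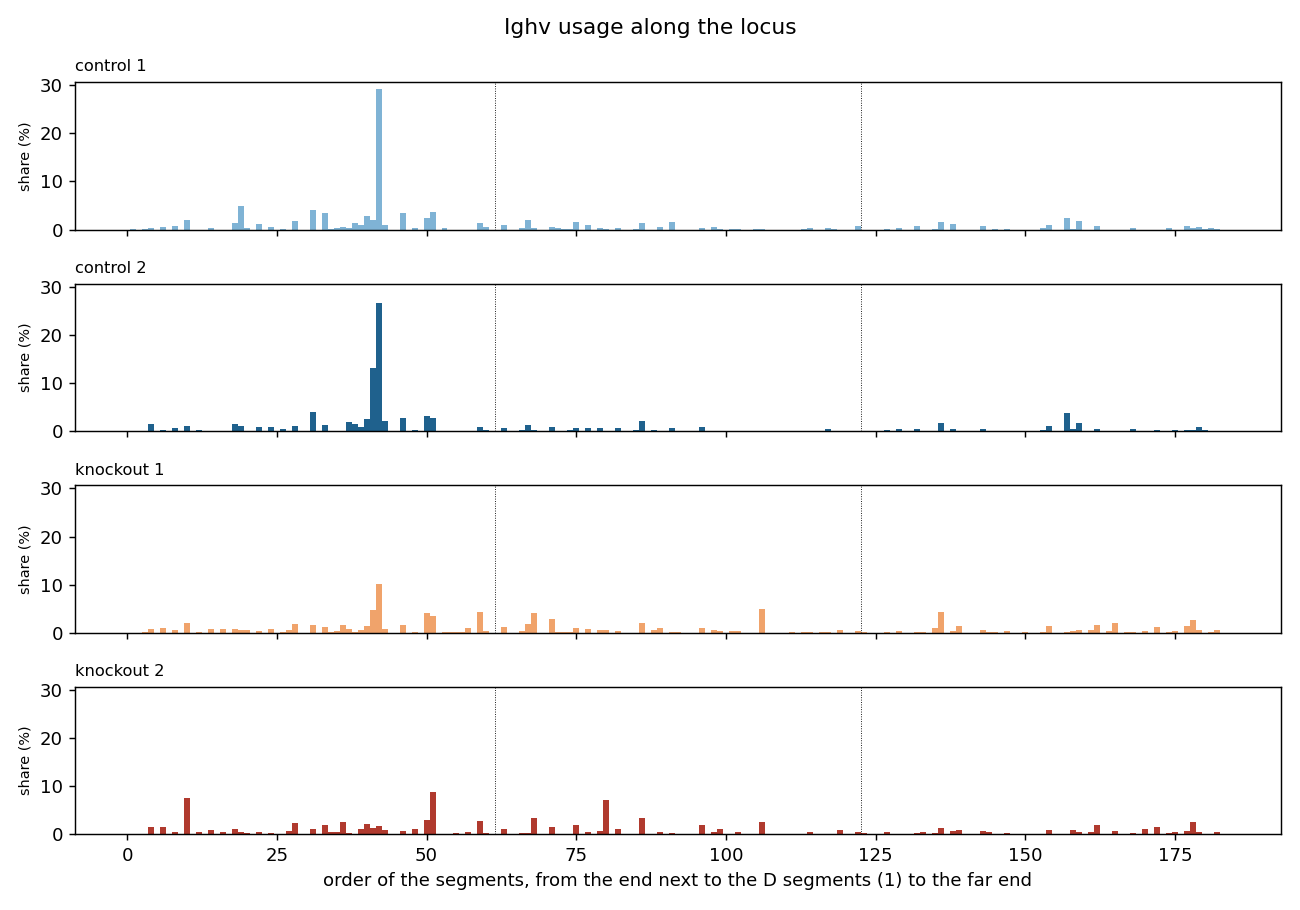
Share of all Ighv counts (percent, vertical axis) of the 183 segments in their order along the locus (horizontal axis, 1 next to the D segments), 1 panel per library; dotted lines bound the 3 runs of 61 segments. The Ighv11-2 bar reaches 29.2% and 26.7% in the controls, and bars spread beyond the D-proximal run in the libraries labelled knockout.

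Usage was more even in the libraries labelled knockout, and the separation of the groups in the effective number of segments rested on 1 segment. The effective number of segments, the inverse Simpson index of the shares, was 10.1 in each control and 33.0 and 32.8 in knockout replicates 1 and 2, a difference of 22.8 with SDs of 0.0176 and 0.139 (n = 2 per group). It took 7 and 5 segments to reach 50% of Ighv counts in the controls, and 13 and 14 in the libraries labelled knockout. Thinning every library to 1732 Ighv counts left the values at 10.1, 10.1, 32.5 and 32.3 (means of 100 draws). Without Ighv11-2, however, the effective numbers were 34.9 and 19.4 in the controls and 40.4 and 32.0 in the libraries labelled knockout, so the groups overlapped and the difference was 9.04. Counted by family it was -0.38, with 6.43 and 6.48 effective families in the controls against 5.80 and 6.34. The number of segments with at least 1 count, thinned to the same depth, was 85 and 80.3 in the controls and 103 and 105 in the libraries labelled knockout.

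**Figure D4:**
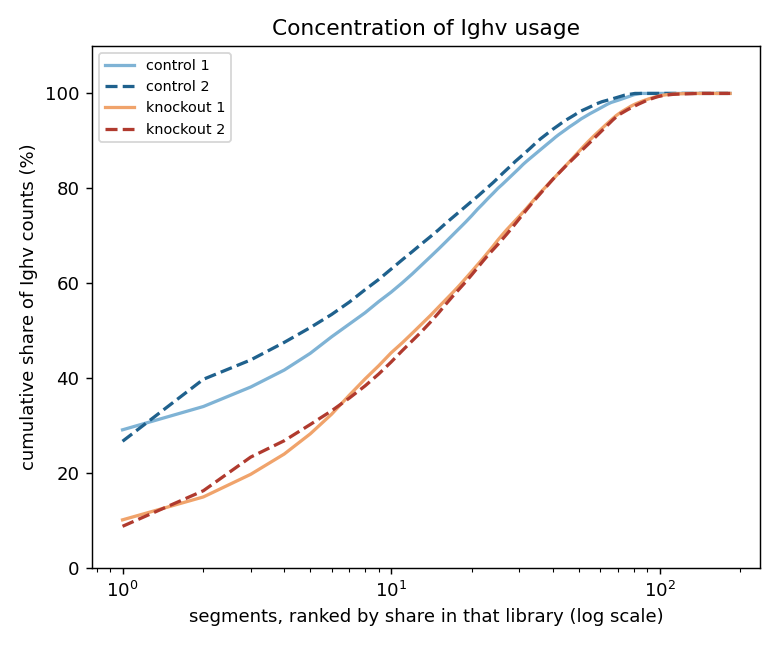
Cumulative share of Ighv counts (percent) against the number of segments, ranked within each library (log scale), 1 line per library. The control lines start at 29.2% and 26.7% and the lines of the libraries labelled knockout at 10.2% and 8.84%, and the latter reach 50% at 13 and 14 segments.

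Libraries of the same group did not share 1 usage. The Bray-Curtis dissimilarity of usage, 0 for equal shares and 1 for no overlap, was 0.246 between the controls and 0.343 between the libraries labelled knockout. Between groups it ran from 0.452 to 0.591, above both within-group values. The lower values, 0.452 for each control, were with knockout replicate 1, and the higher values, 0.551 and 0.591, with knockout replicate 2. Without Ighv11-2 the order was the same, at 0.447 and 0.454 against 0.484 and 0.533. Within groups it was then 0.327 between the controls and 0.319 between the libraries labelled knockout, so the controls were no longer the closer pair. A chi-square of Ighv counts per degree of freedom, which grows with depth and sets the difference against counting noise alone with reads taken as independent, was 6.92 between the controls and 112 between the libraries labelled knockout. Of 49 segments with a mean share of at least 0.5%, 18 differed 2-fold or more in share between the controls and 15 between the libraries labelled knockout. Some of the 18 rest on few control counts, such as Ighv1-76 (0 and 3) and Ighv10-3 (2 and 0). The 18 and the 15 are therefore not alike in counting noise. Over all 145 detected segments, 59 had higher and 21 lower shares in both libraries labelled knockout than in both controls, and 65 overlapped. The 59 depends on depth, since 23 V genes and 23 pseudogenes had 0 counts in both controls and some in those labelled knockout. Any of these with reads in both libraries labelled knockout is counted as higher. Among the 49, 16 had higher and 13 lower shares in both libraries labelled knockout than in both controls, and 20 overlapped. In CPM, a different measure, 34.4% of all tested genes lay higher in both libraries labelled knockout and 33.7% lower. The counts among the 49 therefore do not by themselves set these segments apart from other genes.

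**Figure D5:**
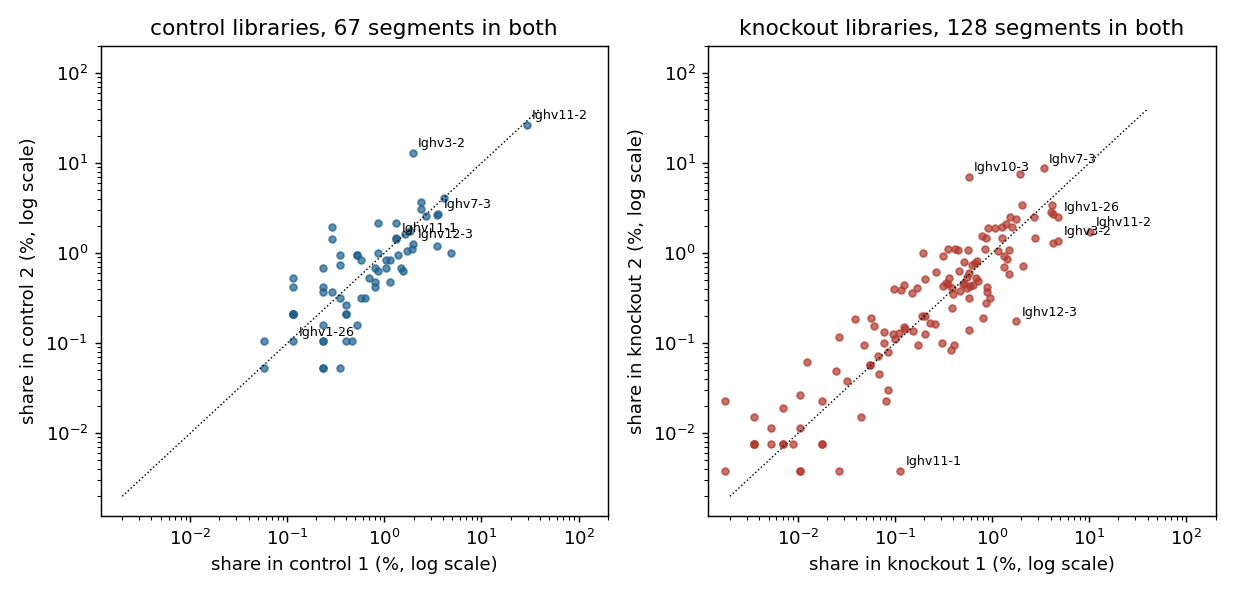
Share of Ighv counts (percent, log scales) in replicate 1 against replicate 2, controls on the left (67 segments with counts in both) and libraries labelled knockout on the right (128 segments); the dotted line marks equal shares. Ighv3-2 lies off the line in the controls, and Ighv10-3, Ighv12-3, Ighv11-1 and Ighv11-2 in the libraries labelled knockout.

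B cell and T cell markers were higher together with the Ighv genes, and other lists were mixed. Beside the counts of each list, 12.1% of all 19134 tested genes were called higher and 9.95% lower. All 10 B cell markers were higher, with a median log2 fold change of 4.52, and summed to 182 and 124 CPM in the controls and to 1559 and 1605 CPM in the 2 labelled knockout. The B cell sum was thus nearly equal in the libraries labelled knockout, while Ighv CPM differed 2021 to 894. Cr2, a complement receptor of mature B cells, had 3.002 and 1.46 CPM in the controls and 121.9 and 136 CPM in knockout replicates 1 and 2 (edgeR adjusted p = 0.00179). Of 10 plasma cell genes 5 rose, 1 fell and 4 did not pass (median 1.66). Jchain, the joining chain of secreted IgM and IgA, had 72.2 and 54.5 CPM in the controls against 924 and 508 CPM (edgeR adjusted p = 0.00575), and like Ighv it was higher in knockout replicate 1. The plasma cell gene that fell, Sdc1, is also made by epithelia (257 and 298 CPM against 99.7 and 72.6 CPM, edgeR adjusted p = 0.00763).

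Of 8 genes of V(D)J recombination and B cell precursors 4 were tested, and 3 of these rose and 1 did not pass (median 1.41). Those that rose were Vpreb3, Il7r and Ebf1. Too low to be tested were Rag1, Rag2, Vpreb1 (4 and 8 counts in the controls, 9 and 4 in those labelled knockout) and Igll1 (0 and 0, then 2 and 2). Rag1, part of the recombinase, had 0 counts in both controls and 8 and 16 in the libraries labelled knockout, and Rag2 had 0 in all 4. All 8 T cell genes rose (median 4.19). The list of lymph node stroma and follicle genes had 5 of 7 tested members higher and 2 not passing (median 2.59), with sums of 155 and 117 CPM in the controls and 786 and 660 CPM in the 2 labelled knockout and no tested member at 0 in any library. Glycam1, a ligand of high endothelial venules, had 0.455 and 0.335 CPM in the controls against 36.4 and 39.3 CPM (edgeR adjusted p = 0.00153). The part of these lists in the Ighv result was not tested, and the labels do not say whether lymph nodes were removed in dissection.

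The constant genes carried by Ighv transcripts shifted as well. Ighm, the constant gene of IgM, took 86.9% and 87.8% of counts of 8 heavy chain constant genes in the controls and 55.5% and 34.0% in the libraries labelled knockout, and 7 of the 8 genes rose (median 5.76), the exception being Ighm itself (614 and 492 against 4278 and 1228 CPM, edgeR adjusted p = 0.0505). For 100 CPM of constant genes there were 11.2 and 14.1 CPM of Ighv genes in the controls and 26.2 and 24.7 CPM in the 2 labelled knockout.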

How the data were processed

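Pancreas RNA of 4 mouse libraries was analysed, with groups and replicate numbers read from the sample titles. The deposited tables give raw counts of reads for each gene symbol, per the file headers. Tools named in the submitters' processing notes are STAR 2.7.6a, featureCounts 2.0.1, SAMtools 1.7, Trim Galore 0.6.6 and FastQC 0.11.9, with the build GRCm38. For the annotation, strand setting and reads with more than 1 alignment, the sources used here give no setting.

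Tests across 19134 genes used edgeR 4.0.16 (R 4.3.3): filterByExpr, TMM, the quasi-likelihood test of group without covariates, and Benjamini-Hochberg adjustment at 0.05. Ighv rows were read from that fit. The SE was taken as the log2 fold change over the root of F. The procedure was tested on simulated data. CPM use TMM-scaled totals. Shares are percentages of a library's Ighv counts. Exact 95% intervals cover counting error only. Alternatives used DESeq2 1.42.0, limma-voom (limma 3.58.1), other scalings and filters, the replicate number as a block, and single libraries left out.

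Segments were named by rule: the 10 with the highest mean share, the 3 highest in each library, and the 4 largest rises and falls among called segments of at least 10 CPM (no fall was called). Among those of at least 0.5% mean share, the rule added the 3 with the most unequal shares between the controls, 3 between the libraries labelled knockout, and the 3 highest and 3 lowest by knockout share over control share. It also took the 3 pseudogenes with the most counts. Single genes of the marker lists were chosen after their values were seen. The result of 1 marker list is not reported here. Members and lists were chosen with earlier results of these data known.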

Additional observations from a re-analysis of the deposited data

How the results depend on the processing

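The number of higher segments was 88 in the fit reported and 59 to 90 under the settings that kept all libraries. It ran from 27 to 102 when single libraries were left out, and the number of lower segments from 0 to 1. The replicate numbers share no stated origin (correlation of deviations 0.0282 over 19134 genes). With them as a replicate block 88 segments were higher, 85 of them among those reported, and Ighv2-6 (1.996, edgeR adjusted p = 0.0173) and Ighv1-14 (1.76, edgeR adjusted p = 0.0415) passed. The difference in effective number of segments, 22.8, was 22.1 without pseudogenes, 21.1 with shares per length (added after seeing the data), 22.3 after thinning, 9.04 without the most used segment and -0.38 by family. Dissimilarity between groups, 0.511 on average, was 0.380 by family. The sign of Ighv11-1 turned with limma-voom (-1.75), with the replicate block (-0.82) and in 2 of the fits without 1 library, which ran from -4.83 to 1.04. That of Ighv11-2 ran from -0.52 to 3.22 and that of Ighv8-11 from -0.96 to 0.36 without 1 library. The cause was not tested. With 1732 and 1892 Ighv counts, control usage of minor segments rests on few reads.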

Other observations

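The D and J segments that are joined to Ighv segments, and the light chain partners of Ighv11-2 and Ighv12-3, were looked at after the heavy chain values were seen. Of 24 D and J segments 6 passed the filter and all 6 were higher in those labelled knockout (edgeR, median log2 fold change 3.72). Of all 19134 tested genes 12.1% were called higher. Ighj3, Ighj1, Ighd4-1 and Ighd1-1 reached the filter's count level in both libraries labelled knockout but not in both controls. The filter favours such segments, so the 6 are not independent support. Ighj4 was the highest of the J segments in all 4 libraries except control replicate 2, at 1.14 and 0.669 CPM in the controls and 11.2 and 6.68 CPM in the 2 labelled knockout (edgeR adjusted p = 0.0102). In control replicate 2 Ighj2 was slightly higher, at 0.711 CPM.

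Igkv14-126, the light chain segment known to pair with Ighv11-2 in phosphatidylcholine-binding antibodies, had 63.2 and 43.3 CPM in the controls, 235 in knockout replicate 1 and 28.1 in knockout replicate 2 (log2 fold change 1.31 ± 0.92, edgeR adjusted p = 0.351). Its order over the 4 libraries was that of Ighv11-2, highest in knockout replicate 1 and lowest in knockout replicate 2. Igkv4-91, the partner known for Ighv12-3, had 5.32 and 3.26 CPM in the controls and 83.9 and 28.4 CPM in the 2 labelled knockout (3.71 ± 0.60, edgeR adjusted p = 0.0168). In knockout replicate 2 Igkv4-91 was well above both controls, whereas Ighv12-3, at 1.57 CPM, was close to the higher control at 1.55 CPM.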
